A study of Homo sapiens with 4 samples.

Results

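The platelet-derived growth factor (PDGF) genes examined here were the ligand genes PDGFA, PDGFB, PDGFC and PDGFD and the receptor genes PDGFRA and PDGFRB, 6 genes of the 58229 in the table, taken as a whole family by gene symbol. Each symbol had 1 row. PDGF ligands are secreted dimers that bind receptor tyrosine kinases on neighbouring cells, and the receptors pair on binding and pass the signal through RAS, PI3 kinase and phospholipase C gamma. In vessels, endothelial cells are a known source of PDGF-B, while PDGFR-beta is the classical receptor of pericytes and smooth muscle and PDGFR-alpha is best known in early mesoderm and mesenchyme. Some of these ligands are made as active dimers, whereas PDGF-C and PDGF-D need a protease to remove their CUB domain before they bind.

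RNA was sequenced from cells positive for CD31, the adhesion protein encoded by PECAM1, after 8 days of stepwise hematopoietic differentiation. The cells came from H1, a long-established line of human embryonic stem cells. The Control group (n = 2) came from H1 without HAND1 overexpression and the HAND1_OE group (n = 2) from H1 overexpressing HAND1, a basic helix-loop-helix factor of heart and extraembryonic mesoderm. Both groups received activin A and BMP4 first and VEGF and bFGF next, and the comparison asked what sustained HAND1 does to mesenchymal gene expression at the passage from endothelium to blood. How HAND1 was introduced, and whether the 2 samples of a group came from separate cultures, is not given in the sources used here, so p-values measure only the spread between these samples.

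Values are FPKM (fragments per kilobase of transcript, scaled to library depth), which allow levels of different genes to be set side by side. By the smallest steps between low values, the libraries were deep enough that 1 FPKM stood for about 21.5 to 26.0 fragments per kilobase of transcript, and the depths were 0.979 to 1.18 times that of Control replicate 1. HAND1 itself measured 12.1 and 14.3 FPKM without overexpression and 520 and 517 FPKM with it, a log2 fold change of 5.20 (SE 0.152, limma adjusted p = 0.00145). Of 14622 genes tested, 299 rose and 309 fell at an adjusted p under 0.05. PECAM1 was present in all libraries, at 95.5 and 141 FPKM in Control and 92.0 and 160 FPKM in HAND1_OE, as were CDH5 and KDR, while PTPRC, the pan-leukocyte marker CD45, did not exceed 0.023 FPKM in any library. Blood cell markers differed greatly between the groups: their summed level was 506 to 766 FPKM in Control and 74.9 to 130 FPKM in HAND1_OE. In bulk samples such as these, fewer cells of a type and less RNA per cell cannot be told apart.

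PDGFRB was the only gene of the family called at a limma adjusted p under 0.05. It rose from a mean of 6.51 ± 2.00 to 29.3 ± 4.76 FPKM (SD, n = 2 per group). PDGFRA and PDGFD were higher and PDGFC was lower in both HAND1_OE libraries than in both Control libraries, none of them past the threshold after adjustment over all genes. PDGFA differed less and PDGFB overlapped between the groups. The 6 genes thus spanned log2 fold changes from -1.17 to 2.03, with a median of 0.90 beside a median of -0.078 over all genes tested. All 6 passed the filter on low values. Exactly 1 of the 6 was called, and it was higher, where 4.16% of all genes tested were called, 2.04% higher and 2.11% lower. The groups did not overlap for 5 of the 6 genes, 4 higher and 1 lower, a share to be read against the 46.3% of all genes tested whose groups did not overlap.

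**Figure D1:**
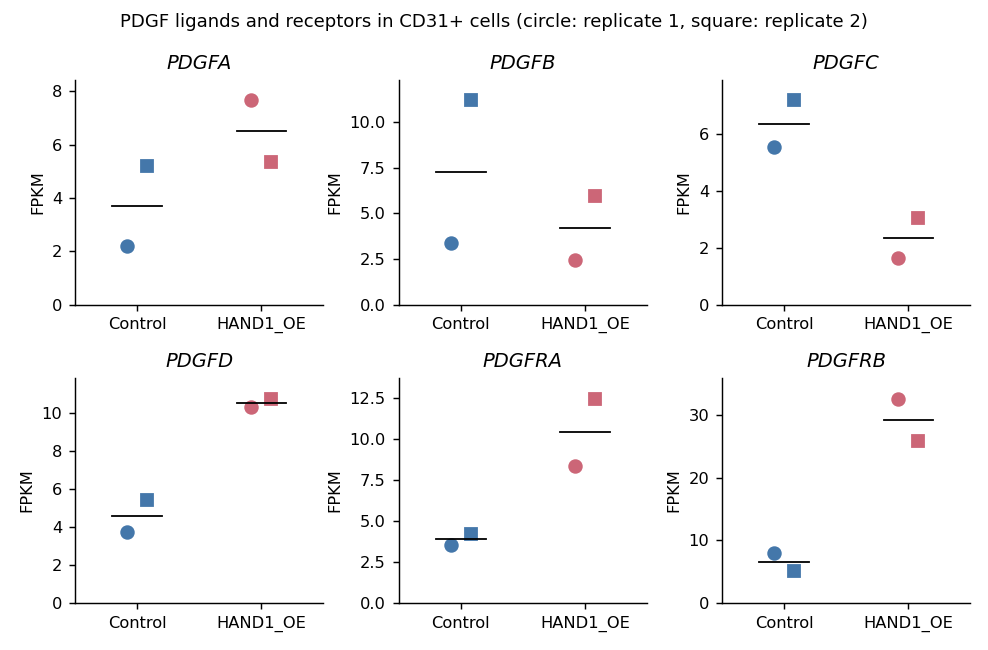
FPKM of each PDGF gene in the 2 Control and 2 HAND1_OE libraries, each panel with its own linear axis from 0; circles are replicate 1, squares replicate 2 and black bars group means (n = 2). PDGFRB lies at 5.09 to 7.92 FPKM in Control and 25.9 to 32.6 FPKM in HAND1_OE, whereas the PDGFB values of the groups overlap.

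The promoter windows of the 3 genes with the largest positive differences are shown because HAND1 and its E protein partners are known to bind E-boxes, the hexamer CANNTG. The windows run from 250 bases before to 50 bases after a RefSeq transcription start (GRCh38.p14), are written 5′ to 3′ on the gene's own strand, and carry the E-boxes in capitals. The PDGFRB window is chr5:150155796-150156095 (minus strand), the PDGFRA windows are chr4:54229043-54229342 and chr4:54233710-54234009 (plus strand), at the starts of different transcripts, and the PDGFD window is chr11:104164098-104164397 (minus strand).
PDGFRB: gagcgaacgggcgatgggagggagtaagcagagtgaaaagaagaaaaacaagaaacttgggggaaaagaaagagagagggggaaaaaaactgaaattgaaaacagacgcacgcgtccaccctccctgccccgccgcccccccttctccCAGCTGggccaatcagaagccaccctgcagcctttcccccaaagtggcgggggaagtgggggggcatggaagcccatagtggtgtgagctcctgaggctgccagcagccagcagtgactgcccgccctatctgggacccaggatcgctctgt
PDGFRA first start: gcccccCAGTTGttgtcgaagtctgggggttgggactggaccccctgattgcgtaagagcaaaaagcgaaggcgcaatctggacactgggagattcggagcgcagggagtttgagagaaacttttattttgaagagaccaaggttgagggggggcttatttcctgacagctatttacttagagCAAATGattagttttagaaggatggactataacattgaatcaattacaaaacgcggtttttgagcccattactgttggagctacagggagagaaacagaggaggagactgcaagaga
PDGFRA second start: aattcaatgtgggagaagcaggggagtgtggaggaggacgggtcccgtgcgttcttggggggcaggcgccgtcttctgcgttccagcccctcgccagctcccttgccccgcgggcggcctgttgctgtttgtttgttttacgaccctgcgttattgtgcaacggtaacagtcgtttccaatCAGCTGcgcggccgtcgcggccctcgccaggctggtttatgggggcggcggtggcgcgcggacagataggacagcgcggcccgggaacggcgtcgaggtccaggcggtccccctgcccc
PDGFD: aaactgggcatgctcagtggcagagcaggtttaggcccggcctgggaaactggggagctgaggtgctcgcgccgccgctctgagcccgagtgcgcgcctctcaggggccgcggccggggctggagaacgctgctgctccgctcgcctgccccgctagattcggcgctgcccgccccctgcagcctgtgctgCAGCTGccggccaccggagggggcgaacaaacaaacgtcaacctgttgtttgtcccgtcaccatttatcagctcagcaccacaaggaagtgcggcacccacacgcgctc

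The PDGFRB window held 1 E-box, CAGCTG, at 102 bases before the start, and the PDGFD window held the same hexamer at 59 bases before. The first PDGFRA window held CAGTTG at 244 and CAAATG at 67 bases before the start, and the second held CAGCTG at 69 bases before. CANNTG reads as a match on both strands at once and was counted once per position. Such matches are common: 68.7% of the 35116 windows in the RefSeq table held at least 1, with a median of 1 in a window, and 17.9% held CAGCTG. PDGFA had 4 windows with 1, 0, 2 and 1 E-boxes, and 1 of them also held a CArG box, the motif of serum response factor, which 1.29% of all windows held. A match in these letters is a description and does not show binding; 4 of the 6 genes were matched to windows.

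Among the ligands, PDGFA (ENSG00000197461.13, chr7:497258-520296, minus strand, GRCh38) encodes the A chain, a ligand of PDGFR-alpha. The Control libraries gave 2.18 and 5.20 FPKM and the HAND1_OE libraries 7.66 and 5.34 FPKM. All HAND1_OE values lay above the Control values, but the second replicates of the groups were nearly equal. The log2 fold change on the log2(FPKM + 1) scale was 0.74 (SE 0.357, 95% interval -0.15 to 1.63), with an adjusted p of 0.380 by limma, so the difference did not pass the test. Leaving out Control replicate 1 gave 0.26, and leaving out Control replicate 2 gave 1.22.

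PDGFB (ENSG00000100311.16, chr22:39223359-39244751, minus strand) encodes the B chain, which binds both receptors and recruits pericytes to vessels. Its values were 3.35 and 11.2 FPKM in Control and 2.46 and 5.93 FPKM in HAND1_OE, and the groups overlapped. Replicate 2 exceeded replicate 1 by a factor of 3.34 in Control and 2.41 in HAND1_OE, a spread larger than the difference between the group means of 7.27 ± 5.54 and 4.20 ± 2.45 FPKM. The log2 fold change was -0.57 (SE 0.559, 95% interval -1.96 to 0.82, limma adjusted p = 0.704) and turned to 0.17 without Control replicate 2. B chain is also stored in platelets and made by megakaryocytes, and the summed level of 8 platelet and megakaryocyte markers was 46.7 to 61.2 FPKM in Control and 13.2 to 16.5 FPKM in HAND1_OE; the part of these cells in the PDGFB values was not tested.

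PDGFC (ENSG00000145431.10, chr4:156760454-156971394, minus strand) encodes a latent ligand of PDGFR-alpha that is released by proteolysis. It was the only member whose HAND1_OE values both lay below both Control values, at 1.63 and 3.05 FPKM against 5.55 and 7.20 FPKM. Its log2 fold change was -1.17 (SE 0.270, 95% interval -1.84 to -0.50), with an unadjusted p of 0.00579 and a limma adjusted p of 0.0882, not past the threshold. Without HAND1_OE replicate 2 the adjusted p was 0.0302 and the log2 fold change -1.48. Over all alternatives the limma adjusted p of PDGFC ran from 0.0296 to 0.311.

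PDGFD (ENSG00000170962.12, chr11:103907186-104164379, minus strand) encodes the other latent ligand, which binds chiefly PDGFR-beta. Its values were 3.72 and 5.41 FPKM in Control and 10.3 and 10.8 FPKM in HAND1_OE. The HAND1_OE libraries agreed closely and both lay well above Control. The means were 4.56 ± 1.19 and 10.5 ± 0.330 FPKM, and the log2 fold change was 1.07 (SE 0.205, 95% interval 0.56 to 1.58, unadjusted p = 0.00243, limma adjusted p = 0.0545). This call depended on the setting: the adjusted p was 0.0464 when only genes with 1 FPKM or more in every library were tested, 0.0431 after quantile normalization and 0.0497 after median-ratio scaling. Over all alternatives the limma adjusted p of PDGFD ran from 0.0333 to 0.232.

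Between the receptors, PDGFRA (ENSG00000134853.11, chr4:54229097-54298247, plus strand) encodes the alpha receptor, which responds to A, B and C chains. The Control libraries gave 3.54 and 4.22 FPKM, and the HAND1_OE libraries gave 8.33 and 12.4 FPKM. The groups were apart, and the HAND1_OE libraries differed more from each other than the Control libraries did. The log2 fold change was 1.20 (SE 0.231, 95% interval 0.63 to 1.78, unadjusted p = 0.00245, limma adjusted p = 0.0547). As for PDGFD, the adjusted p fell under the threshold in the set of genes with 1 FPKM or more in every library (0.0440), after quantile normalization (0.0391) and after median-ratio scaling (0.0479), and also without HAND1_OE replicate 1 (0.0254, log2 fold change 1.47). Over all alternatives the limma adjusted p of PDGFRA ran from 0.0247 to 0.246.

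PDGFRB (ENSG00000113721.13, chr5:150113837-150155872, minus strand) encodes the beta receptor, which responds to B and D chains. Its values were 7.92 and 5.09 FPKM in Control and 32.6 and 25.9 FPKM in HAND1_OE, about 175 and 110 against 850 and 596 fragments per kilobase. Both HAND1_OE libraries stood far above both Control libraries, and the ratio of the group means was 4.50. The log2 fold change was 2.03 (SE 0.239, 95% interval 1.43 to 2.62), with an unadjusted p of 0.000208 and a limma adjusted p of 0.0164. Among the genes tested, 83 had a higher log2 fold change. PDGFRB stayed past the threshold in each alternative but 1: when all 29860 genes with a value above 0 were tested together, no gene was called and its adjusted p was 0.172. Over all alternatives the limma adjusted p of PDGFRB ran from 0.00668 to 0.172. At an unadjusted p under 0.05, 4 of the 6 genes passed (PDGFC, PDGFD, PDGFRA and PDGFRB), where 17.4% of all genes tested did.

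**Figure D2:**
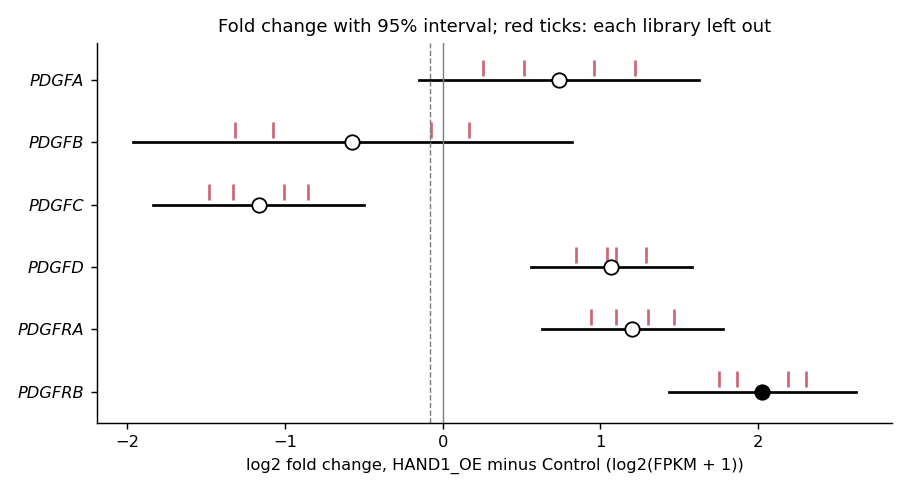
Log2 fold change of each PDGF gene on the log2(FPKM + 1) scale, HAND1_OE minus Control, with its 95% limma interval (black line); a filled circle marks an adjusted p under 0.05, red ticks give the value with each library left out in turn, the solid grey line is 0 and the dashed line is the median over all genes tested. PDGFRB is the filled circle at 2.03, and the ticks of PDGFB alone lie on both sides of 0.

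**Figure D3:**
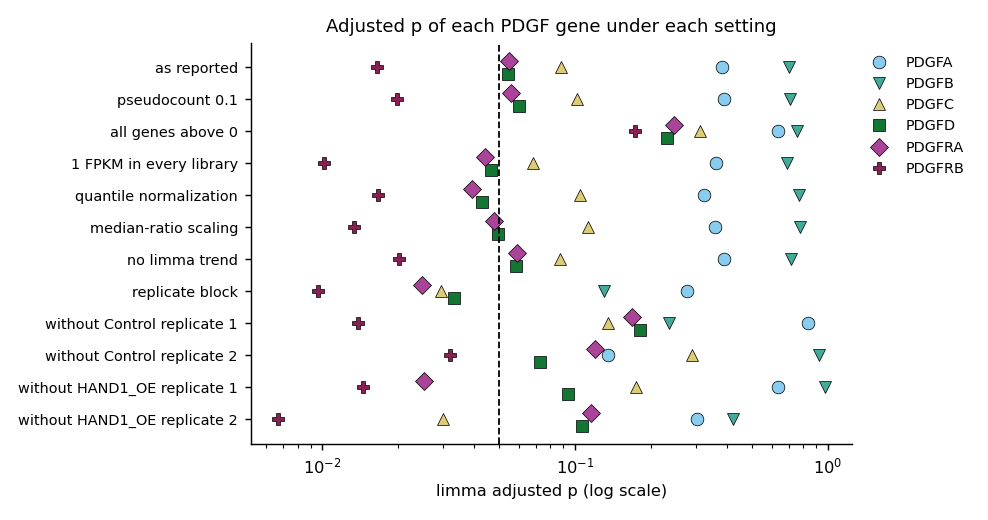
Adjusted p by limma (log axis) of each PDGF gene as reported and under each alternative setting or with a library left out, with the threshold of 0.05 dashed. PDGFD and PDGFRA, at 0.0545 and 0.0547 as reported, fall on either side of the line depending on the setting, and PDGFRB is to the right of it only when all genes above 0 are tested.

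The order of the 6 genes differed between the groups. In Control the means ran from 7.27 FPKM for PDGFB through PDGFRB, PDGFC, PDGFD and PDGFRA to 3.69 FPKM for PDGFA, and of these neighbours only PDGFC and PDGFD did not overlap in their library values. In HAND1_OE the order was PDGFRB, PDGFD, PDGFRA, PDGFA, PDGFB and PDGFC, from 29.3 to 2.34 FPKM. There PDGFRB did not overlap with PDGFD, nor PDGFRA with PDGFA, while the other neighbours overlapped. Against all genes tested, the PDGFRB mean was above 39.7% of gene means in Control and above 78.9% in HAND1_OE.

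Summed over the family, the receptor values were apart between the groups and the ligand values were not. The receptor genes together gave 11.5 and 9.31 FPKM in Control and 41.0 and 38.4 FPKM in HAND1_OE, with no overlap. The ligand genes together gave 14.8 and 29.0 FPKM in Control and 22.1 and 25.1 FPKM in HAND1_OE, so that both HAND1_OE values lay between the Control values. The makeup of the ligand sum differed: PDGFD was 25.1 and 18.6% of it in Control and 46.7 and 42.9% in HAND1_OE, whereas PDGFC was 37.5 and 24.8% in Control and 7.38 and 12.2% in HAND1_OE. PDGFRB was the larger part of the receptor sum, at 69.1 and 54.7% in Control and 79.7 and 67.6% in HAND1_OE. The Control ligand sums lay far apart, with PDGFB at 3.35 and 11.2 FPKM. No test was run on these sums and shares.

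**Figure D4:**
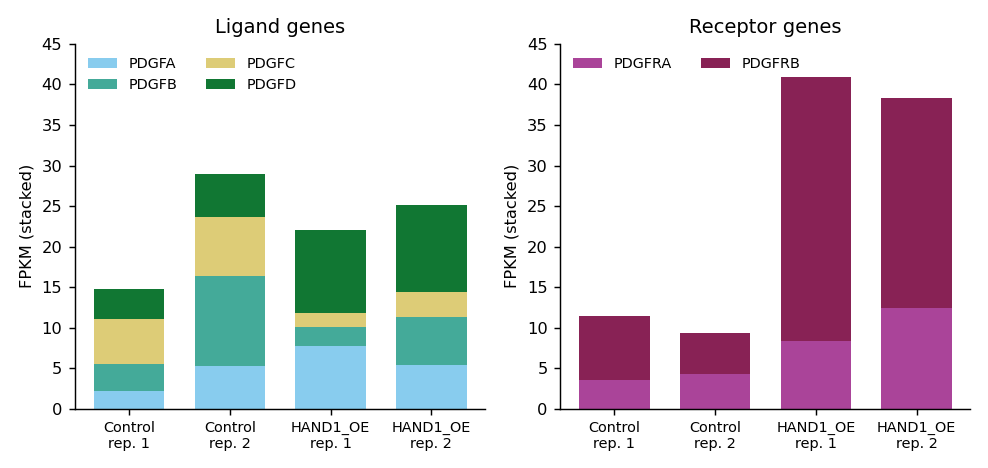
Stacked FPKM of the 4 ligand genes (left) and the 2 receptor genes (right) in each library, both axes linear from 0 and to the same height. The receptor stacks reach 9.31 to 11.5 FPKM in Control and 38.4 to 41.0 FPKM in HAND1_OE, and the ligand stacks of HAND1_OE lie between those of the Control libraries.

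The balance within the receptors and within the classical ligands is given by its values, because an exact test of 2 against 2 libraries cannot pass 0.05 whatever they are. PDGFRB exceeded PDGFRA in every library, by a factor of 2.24 and 1.21 in Control and of 3.92 and 2.08 in HAND1_OE. The difference between the groups in log2(FPKM + 1) of PDGFRB minus PDGFRA was 0.83, with an exact two-sided permutation p of 0.333, the smallest this design allows. The ratios themselves overlapped between the groups, and with a pseudocount of 0.1 the exact permutation p was 0.667. PDGFB exceeded PDGFA by a factor of 1.54 and 2.15 in Control, and the ratio was 0.321 and 1.11 in HAND1_OE, a difference of -1.31 on the same scale with the same exact permutation p of 0.333. With 2 ratios compared, the adjusted p was 0.333 for both.

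Genes beside the members on the chromosome were compared as the nearest tested protein-coding gene on each side. HMGXB3, 60.7 kb from PDGFRB, was at 29.0 and 24.8 FPKM in Control and 27.2 and 26.5 FPKM in HAND1_OE, and TCOF1, 202 kb away on the other side, had a log2 fold change of -0.097 (limma adjusted p = 0.825). CSF1R, the adjoining receptor gene of the same structural class, was too low to be tested, at 1.71 and 0.853 FPKM in Control and 0.388 and 0.292 FPKM in HAND1_OE. Beside PDGFRA, KIT had a log2 fold change of -0.59 (limma adjusted p = 0.143) and CHIC2 of 0.37 (limma adjusted p = 0.464). Of the 12 neighbours, only FAM20C, a secretory pathway kinase gene 237 kb from PDGFA, passed the test, where 4.16% of all genes tested did. FAM20C fell from 6.82 and 7.18 FPKM to 2.07 and 2.97 FPKM (log2 fold change -1.20, limma adjusted p = 0.0397).

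The list of ligand processing and co-receptor genes gave 3 of the 6 pathway genes that rose. Of 13 genes for ligand processing and co-receptors, all tested, 3 rose and none fell at an adjusted p under 0.05, where 2.04% of all genes tested rose and 2.11% fell, and their median log2 fold change was 0.27 beside -0.078 for all genes tested. PLAT, tissue plasminogen activator, which can cleave latent PDGF-C, rose from 3.65 and 4.01 FPKM to 9.37 and 9.96 FPKM (log2 fold change 1.14, limma adjusted p = 0.0263). SPARC, a matrix protein that binds the B chain, rose from 505 and 594 FPKM to 1450 and 1387 FPKM (log2 fold change 1.37, limma adjusted p = 0.0220). LRP1, an endocytic receptor that associates with PDGFR-beta, rose from 12.7 and 15.5 FPKM to 25.8 and 28.9 FPKM (log2 fold change 0.91, limma adjusted p = 0.0497). PLAU and ST14, proteases that can activate PDGF-D, had log2 fold changes of 0.42 and -0.36 with limma adjusted p of 0.329 and 0.728. Of the 13 genes, 9 had log2 fold changes above 0 and 4 below. PCSK6 (-1.13, limma adjusted p = 0.193), NRP1 (-0.71, limma adjusted p = 0.233) and HSPG2 (-0.45, limma adjusted p = 0.504) were lower without overlap. PCSK6, NRP1 and HSPG2 were singled out after their values were seen.

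Inside the cell, most signalling parts common to many receptors did not pass the test, as was so for all genes tested, of which 4.16% were called. Of 36 adapters and kinases that the receptors use, 35 were not called and STAT5A, a transcription factor that receptors and cytokines activate, fell from 30.5 and 27.0 FPKM to 11.8 and 11.2 FPKM (log2 fold change -1.25, limma adjusted p = 0.0176). Their median log2 fold change was 0.0080. Of 14 negative regulators, SPRY1, an inhibitor of RAS signalling, fell from 44.9 and 76.3 FPKM to 8.44 and 12.0 FPKM (log2 fold change -2.42, limma adjusted p = 0.0179), and the other 13 were not called. The median of these regulators was -0.041. The shares called, 2.78% of the adapters and kinases and 7.14% of the negative regulators, were near the share of all genes tested.

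Among 16 genes known to respond to growth factors, 2 rose and 1 fell, where 2.04% of all genes tested rose and 2.11% fell. Their median log2 fold change was -0.43 beside -0.078 for all genes tested. CCND1, cyclin D1, rose from 23.4 and 22.0 FPKM to 45.5 and 38.3 FPKM (log2 fold change 0.85, limma adjusted p = 0.0491), and HAS2, a hyaluronan synthase, rose from 19.2 and 16.7 FPKM to 32.0 and 33.8 FPKM (log2 fold change 0.84, limma adjusted p = 0.0462). JUNB, an AP-1 subunit of the immediate early class, fell from 233 and 223 FPKM to 99.8 and 83.4 FPKM (log2 fold change -1.31, limma adjusted p = 0.0174). The list held calls in both directions, but 11 of its 16 genes had log2 fold changes below 0 and 5 above. EGR3 (-1.66, limma adjusted p = 0.0619) and IER2 (-0.91, limma adjusted p = 0.0606) were lower without overlap. Both were singled out after their values were seen. The genes of this list answer to many signals other than PDGF.

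The receptor relatives of the same class gave no call among 4 of 7 genes tested. CSF1, the ligand of CSF1R, had values of 5.04 and 3.71 FPKM in Control and 11.9 and 9.27 FPKM in HAND1_OE (log2 fold change 1.11, limma adjusted p = 0.0553); it was singled out after its values were seen. FLT3 and IL34 were listed near 0 in every library. Over all 6 pathway lists, the regulators of mesenchymal gene programmes included, 6 of 95 genes tested rose and 3 fell. This was 9.47% in either direction beside 4.16% of all genes tested, with a median log2 fold change of -0.0084. The lists were chosen with earlier results of these data known, so the higher share is no independent result. The count of 9 was 2 without Control replicate 1 or without Control replicate 2, 3 without HAND1_OE replicate 1 and 21 with the replicate number as a block.

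**Figure D5:**
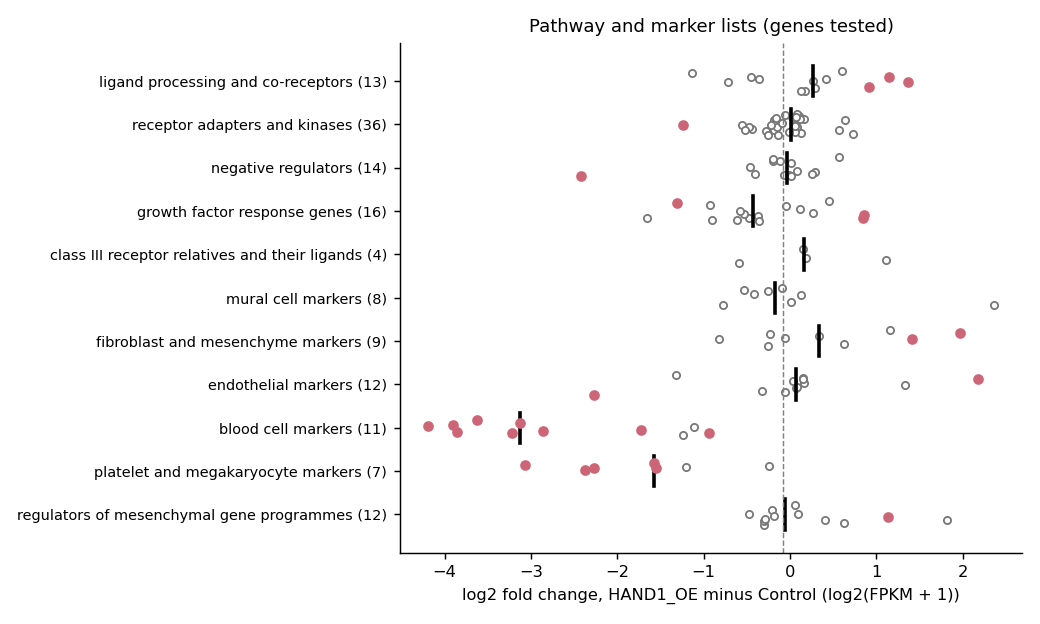
Log2 fold change (log2(FPKM + 1), HAND1_OE minus Control) of each tested gene of the 11 pathway and marker lists, with the number tested in brackets; red points had an adjusted p under 0.05, open points did not, thick bars are list medians and the dashed line is the median over all genes tested. Blood cell and platelet markers lie to the left, with medians of -3.13 and -1.57. The medians of the adapter and negative regulator lists lie close to 0.

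Cells in which PDGFRB is classically found were looked for with markers of mural cells and fibroblasts. Of 12 mural cell markers 8 were tested and none was called by limma, where 4.16% of all genes tested were called. The median log2 fold change was -0.17. The markers summed to 389 to 391 FPKM in Control and 336 to 378 FPKM in HAND1_OE. RGS5, the most abundant of them, was at 193 and 183 FPKM in Control and 143 and 174 FPKM in HAND1_OE, ACTA2 was at 74.1 and 72.2 against 84.3 and 76.2 FPKM, and MYH11, which defines mature smooth muscle, did not exceed 0.016 FPKM. CSPG4, the pericyte proteoglycan NG2, had the largest difference of this list, at 1.61 and 8.03 FPKM in Control and 21.7 and 26.6 FPKM in HAND1_OE (log2 fold change 2.36, limma adjusted p = 0.0940). Of the 8 tested, 5 had log2 fold changes below 0, among them ANPEP (-0.77, limma adjusted p = 0.0861) and MCAM (-0.54, limma adjusted p = 0.193), both lower without overlap. CSPG4, ANPEP and MCAM were singled out after their values were seen.

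Of 12 fibroblast and mesenchyme markers 9 were tested. Beside 2.04% of all genes tested that rose and 2.11% that fell, none of the 9 fell and 2 rose. These were LUM, the matrix proteoglycan lumican, from 14.8 and 17.7 FPKM to 50.1 and 39.7 FPKM (log2 fold change 1.41, limma adjusted p = 0.0214), and POSTN, periostin, from 0.825 and 0.922 FPKM to 6.70 and 6.01 FPKM (log2 fold change 1.97, limma adjusted p = 0.00900). The summed level of the list was 890 to 986 FPKM in Control and 1224 to 1250 FPKM in HAND1_OE, and THY1, its most abundant gene, had an adjusted p of 0.117 by limma. The list did not move together: 5 of the 9 tested genes had log2 fold changes above 0 and 4 below, with a median of 0.33. COL1A2, a chain of collagen I, was lower without overlap, at 154 and 141 FPKM in Control and 68.6 and 101 FPKM in HAND1_OE (log2 fold change -0.82, limma adjusted p = 0.123), and COL1A1 and FBLN1 were also lower without overlap; these 3 were singled out after their values were seen. The summed level was higher in HAND1_OE, as were PDGFRB and PDGFRA. THY1, its greatest part, was at 378 and 383 FPKM in Control and 553 and 628 FPKM in HAND1_OE. COL3A1, singled out after its values were seen, was at 160 and 97.9 against 325 and 241 FPKM (log2 fold change 1.16). Neither THY1 nor COL3A1 was called, and the higher sum does not stand for the list as a whole. The part of such cells in the receptor values was not tested.

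The endothelial markers were near equal in sum, at 1775 to 2264 FPKM in Control and 1987 to 2270 FPKM in HAND1_OE, with a median log2 fold change of 0.072. Of 12 tested, VWF, the von Willebrand factor, rose (log2 fold change 2.18, limma adjusted p = 0.0338) and CLDN5, a tight junction protein, fell (log2 fold change -2.27, limma adjusted p = 0.00700). Of all genes tested, 2.04% rose and 2.11% fell, to be set beside the counts of each marker list here. Of 12 blood cell markers 11 were tested and 9 fell, with a median of -3.13, among them HBE1 (embryonic globin, -4.19, limma adjusted p = 0.00607) and GATA1 (an erythroid and megakaryocyte factor, -3.86, limma adjusted p = 0.00700). Of 8 platelet and megakaryocyte markers 7 were tested and 5 fell, led by ITGB3 (-3.07, limma adjusted p = 0.00851). The blood cell and platelet lists moved in the direction opposite to the receptor genes. The part of any of these cell types in the receptor values was not tested.

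Over the 4 libraries, the genes whose pattern lay closest to that of PDGFRB were AHCY, AMIGO2, GAS6, NBL1 and IGDCC3, by the Euclidean distance between centred log2(FPKM + 1) values. The distances were 0.0562, 0.175, 0.209, 0.222 and 0.243 in that order. AHCY, the S-adenosylhomocysteine hydrolase gene, was at 134 and 95.9 FPKM in Control and 527 and 412 FPKM in HAND1_OE, and GAS6, a ligand of the AXL family of receptors, was at 14.0 and 9.23 against 54.2 and 37.0 FPKM. All 5 rose in HAND1_OE, with log2 fold changes of 1.83 to 2.25, and in each of them replicate 1 exceeded replicate 2 within both groups, as for PDGFRB. Both traits follow from choosing the genes by closeness over the same 4 libraries and are no separate result.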

How the data were processed

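RNA was sequenced from CD31+ cells of 2 Control and 2 HAND1_OE samples at day 8. The deposited table gives FPKM per gene, which the authors made with BWA, Bowtie and RSEM per the submitters' processing notes; versions and the roles of the aligners are not given in the sources used here. The notes name hg19, but 56554 of 58365 rows have the positions of GENCODE release 29 (GRCh38), and coordinates are printed as GRCh38. RSEM divides reads shared by similar genes by estimate. After leaving out 45 pseudoautosomal Y copies and 91 duplicated rows, 58229 genes remained, and 14622 that reached 1 FPKM in 2 or more libraries were tested on log2(FPKM + 1) with limma 3.58.1 (eBayes with trend, R 4.3.3, two-sided, Benjamini-Hochberg over all genes tested), called at an adjusted p under 0.05. A fold change on this scale understates the change of low genes. SDs are over 2 libraries. The fit was tested on simulated data. Depth was estimated from the steps between low FPKM values of single-exon genes, where 95.1 to 96.9% of values came within 0.05 of a whole fragment; it covers counting error only.

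The members and gene lists were chosen with earlier results of these data known. Named were the 6 members, HAND1, up to 3 called genes of each list with the largest change, the most abundant markers, the nearest tested protein-coding gene on each side of a member, and the 5 genes closest in pattern to a called member; the value of 1 gene that this rule names is not reported here, and others are named as chosen after their values were seen or to show the makeup of a list. Alternatives were a pseudocount of 0.1, other filters, quantile normalization, median-ratio scaling, no trend, a replicate block and leaving out each library.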

Additional observations from a re-analysis of the deposited data

How the results depend on the processing

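PDGFRB kept its direction and its side of the threshold under every alternative except the test of all 29860 genes above 0, where its log2 fold change of 2.03 had an adjusted p of 0.172 and HAND1, at 5.20, one of 0.153. In that setting limma called 0 genes higher, 0 lower, 0 PDGF genes and 0 pathway genes, while 1458 higher and 2352 lower genes had an unadjusted p under 0.05; the setting adds low genes to the variance fit and the adjustment.

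PDGFD passed the threshold with 1 FPKM in every library (1.07, adjusted p = 0.0464), quantile normalization (1.16, 0.0431) and median-ratio scaling (1.15, 0.0497). PDGFRA did so in the same settings (1.20, 0.0440; 1.31, 0.0391; 1.28, 0.0479). All 3 settings thus called 3 PDGF genes; the cause was not tested.

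The replicate numbers are shared between groups but no source pairs them; the deviations of same-numbered libraries correlated at 0.383 over 14622 genes, with 2 pairs. With the replicate block, 597 genes were called higher and 712 lower, 4 PDGF genes passed (PDGFC -1.17, adjusted p = 0.0296; PDGFD 1.07, 0.0333; PDGFRA 1.20, 0.0247; PDGFRB) and 21 pathway genes.

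Leaving out each library in turn gave a range for PDGFA of 0.26 to 1.22, for PDGFB of -1.32 to 0.17 (0.17 without Control replicate 2), for PDGFC of -1.48 to -0.86 and for PDGFRA of 0.94 to 1.47. It gave 134 to 266 genes called higher, 137 to 309 lower, 1 to 2 PDGF genes and 2 to 6 pathway genes (2 without Control replicate 1 or without Control replicate 2, 3 without HAND1_OE replicate 1). The lone library of a group is then assumed to vary like the others. With 2 libraries a group, the exact test of a ratio cannot go below 0.333.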

Other observations

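Among 14 regulators of mesenchymal gene programmes, which include GATA and forkhead factors, serum response factor partners and the E proteins that pair with HAND1, 12 were tested and 1 rose, with a median log2 fold change of -0.062 beside -0.078 for all genes tested. The gene was TFAP2A, a factor of neural crest and surface ectoderm, at 3.36 and 3.18 FPKM in Control and 9.66 and 7.25 FPKM in HAND1_OE (log2 fold change 1.13, limma adjusted p = 0.0419). FOXF1, a factor of lateral mesoderm singled out after its values were seen, was at 2.33 and 1.57 FPKM in Control and 13.6 and 6.29 FPKM in HAND1_OE (1.82, limma adjusted p = 0.0592). The E protein genes TCF3, TCF4 and TCF12 had log2 fold changes of -0.48, 0.060 and 0.092 and did not pass the test, with limma adjusted p of 0.198, 0.972 and 0.907. EMCN, endomucin of venous and capillary endothelium, also singled out after its values were seen, was at 22.8 and 34.2 FPKM in Control and 58.5 and 88.3 FPKM in HAND1_OE (1.33, limma adjusted p = 0.0688).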
